A study of Homo sapiens with 12 samples.

Results

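The TFAP2 family comprises the genes of the AP-2 transcription factors, and 4 members, TFAP2A, TFAP2B, TFAP2C and TFAP2E, were picked by name from the 33514 gene symbols of the count tables. Single-cell RNA-seq (scRNA-seq), which counts transcripts at their 3′ ends by unique molecular identifiers (UMIs), had been performed on SCC1, SCC6 and SCC25, 3 established cell lines of head and neck squamous cell carcinoma (HNSCC). The treated groups received 100 nM cetuximab, the therapeutic antibody against the receptor of epidermal growth factor (EGFR), on each of 5 days, and the untreated groups received PBS and were kept in culture for the same time. Each of the 6 groups had 2 replicates, which made 12 samples with 23914 cells. The lines had been chosen by the study as sensitive to cetuximab and each stands for 1 tumour. The sources used here speak both of duplicate treatment and of duplicate sequencing, so that the spread between replicates, and with it every p-value, may be technical.

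AP-2 factors bind GC-rich DNA as dimers, and members of the family can pair with each other. They act in the development of skin, face and neural crest, and AP-2alpha and AP-2gamma, encoded by TFAP2A and TFAP2C, are the forms known from keratinocytes and from epithelial tumours. Genes of growth factor receptors, among them ERBB2, are known AP-2 targets, and the study measured TFAP2A in this setting as a marker of the early response to EGFR blockade.

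In the RefSeq annotation of GRCh38.p14, TFAP2A lies on chr6:10396677-10419659 on the minus strand and TFAP2B on chr6:50818355-50847619. TFAP2C is on chr20:56629306-56639283 and TFAP2E on chr1:35573314-35595591. The 250 bases before the start of the first listed TFAP2A promoter (chr6:10419660-10419909, minus strand) and of TFAP2E (chr1:35573064-35573313, plus strand), the members with the highest and the lowest detected level, are shown 5′ to 3′, with capitals for the letters TATAAA.

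TFAP2A: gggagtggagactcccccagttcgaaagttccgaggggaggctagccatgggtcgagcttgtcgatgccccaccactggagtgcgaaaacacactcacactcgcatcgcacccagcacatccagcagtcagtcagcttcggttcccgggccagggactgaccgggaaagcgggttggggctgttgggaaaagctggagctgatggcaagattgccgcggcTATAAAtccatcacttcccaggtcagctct
TFAP2E: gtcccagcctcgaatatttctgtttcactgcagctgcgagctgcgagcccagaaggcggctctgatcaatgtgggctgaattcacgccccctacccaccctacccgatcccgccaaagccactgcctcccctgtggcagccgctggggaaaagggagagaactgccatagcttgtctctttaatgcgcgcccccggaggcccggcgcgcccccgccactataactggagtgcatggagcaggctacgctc

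TATAAA was searched on both strands (TTTATA on the other) and began 30 bases before the TFAP2A start. It was present in 11.53% of the 35116 promoter windows of RefSeq, each of 300 bases. The AP-2 consensus GCCNNNGGC, which reads the same on both strands and by its letters cannot overlap TATAAA, was in 23.2% of all windows. It was in neither of the 2 windows of TFAP2A nor in the windows of TFAP2B and TFAP2E, which says only that these letters are not there.

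Among 9 listed genes that cetuximab changed in SCC6 (described further on), 7 had promoter windows and 4 of these held the AP-2 consensus. Of all listed genes with windows, 2 of 4 growth factor and receptor genes and 8 of 13 other AP-2 target genes held it. The same was true of 6 of 12 AP-2 partner genes and 5 of 9 epithelial transcription factors. The 4 of 7 were therefore not read as particular to the called genes. The stretches of the 4 called genes are shown because these genes carried both a call and the letters of the motif, and that of EGFR because it is the target of the antibody. Each run has 29 bases of GRCh38.p14 on the strand of the gene, and capitals mark GCCNNNGGC. They come from chr19:44905663-44905691 (plus, APOE), chr11:119317136-119317164 (minus, MCAM), chr2:216695575-216695603 (minus, IGFBP5), chr3:181711784-181711812 (plus, SOX2) and chr7:55018855-55018883 (plus, EGFR, with 2 matches).

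APOE: gccctgctgtGCCTGGGGCagggggagaa
MCAM: cctgacgtcaGCCCCCGGCagcctcgagc
IGFBP5: ctggctggcaGCCAGGGGCcggctattta
SOX2: cccccgcgcgGCCGGCGGCgcgggaggcc
EGFR: gctgtccaccGCCTCCGGCgGCCGCTGGC

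The motif was in 12 of 25 windows of the listed AP-2 target genes (48%) and in 2 of 5 windows of the growth factor and receptor genes (40%). It was in 7 of 21 windows of AP-2 partner genes (33.33%) and in 7 of 17 windows of epithelial transcription factors (41.18%). The GC content of these windows was higher than that of all windows, with list medians of 60.67% to 71.67% against 58.67%. The part of GC content in these shares was not tested.

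The samples held 961 to 2854 cells, 57057402 to 112170073 UMIs in all and a median of 24078.5 to 54864 UMIs per cell. SCC6 cetuximab replicate 1 had the lowest median, 24078.5, and SCC6 cetuximab replicate 2 had 50156, so shares of positive cells were taken after each cell had been thinned to 15000 UMIs, which left 23063 cells and set 851 aside. Of 7 squamous epithelial markers, the summed level was 5792 to 5960 CPM (UMIs of a gene scaled to 1000000 UMIs of the sample) in SCC1 PBS, 6237 to 10598 in SCC25 PBS and 753 to 992 in SCC6 PBS. The basal keratins KRT5 and KRT14, which define this cell type, were close to absent in SCC6 PBS at 1.21 and 0.58 CPM. Under cetuximab the squamous sum ranged from 10276 to 11021 CPM in SCC1, from 2172 to 2736 in SCC6 and from 7775 to 13173 in SCC25. KRT17 held most of the SCC6 sum, with a mean of 605 CPM in PBS and 2227 under cetuximab. In SCC6 the means of KRT5, KRT14, CDH1 and TP63 were also higher under cetuximab. Those of KRT6A (17.9 and 3.47 CPM) and EPCAM (209 and 166 CPM) were lower. Summed markers of endothelium stayed at or under 0.65 CPM and those of melanocytes and neural crest at or under 2.87, with SOX10 at 0 and TYR at 1 UMI in all samples together. Leukocyte markers summed to at most 14.09 CPM, and fibroblast markers to 9.49 to 58.42 in SCC25 and at most 2.10 in the other lines. Single markers held most of the larger sums. In SCC25 LUM had means of 18.3 CPM in PBS and 37.0 under cetuximab, and DCN 1.22 and 1.34. PDGFRA and PDGFRB had means of at most 0.12 CPM there. In SCC1 CD14 had means of 13.1 CPM in PBS and 10.7 under cetuximab, PTPRC was at 0, and CD3E and CD79A had means of at most 0.092. Between replicates of a group 3 to 10 cell barcodes recurred, and between groups 1 to 13.

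TFAP2A and TFAP2C were detected in every sample, TFAP2E was scarce, and TFAP2B was absent at this depth. TFAP2A had 79198 UMIs in 19920 cells, TFAP2C 12050 UMIs in 8431 cells and TFAP2E 266 UMIs in 263 cells. TFAP2B, known from neural crest and kidney, had 0 UMIs among 1045260298, which allows a level of up to 0.00287 CPM and a share of up to 0.0125% of cells with a UMI. Limits and intervals of this kind cover counting error only. TFAP2D, the fifth gene of the family, was also at 0 UMIs.

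TFAP2A was highest in SCC1. In SCC1 PBS it was at 146 and 136 CPM and in SCC1 cetuximab at 143 and 129. In SCC6 PBS the values were 45.1 and 49.5 CPM and in SCC6 cetuximab 48.4 and 46.2. In SCC25 PBS they were 59.5 and 49.97 CPM and in SCC25 cetuximab 60.1 and 58.4. The 4 SCC1 samples lay above all 8 others with no overlap, and within each line the cetuximab and PBS samples overlapped.

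For TFAP2C, SCC1 was the lowest of the untreated lines. SCC1 PBS was at 7.81 and 6.68 CPM and SCC1 cetuximab followed at 12.4 and 9.87. SCC6 PBS was at 10.95 and 13.4 CPM and SCC6 cetuximab at 13.3 and 16.6. SCC25 PBS was at 11.3 and 13.1 CPM and SCC25 cetuximab at 9.95 and 11.7. The SCC1 PBS samples lay below all 10 others, whereas the SCC6 and SCC25 samples overlapped.

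TFAP2E stayed under 1 CPM in each sample. It was at 0.304 and 0.413 CPM in SCC1 PBS and at 0.736 and 0.571 in SCC1 cetuximab. In SCC25 it ranged from 0.173 to 0.344 CPM and in SCC6 from 0.0486 to 0.105. The 4 SCC6 samples were lower than all others, and the SCC1 cetuximab samples were higher than all others.

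**Figure D1:**
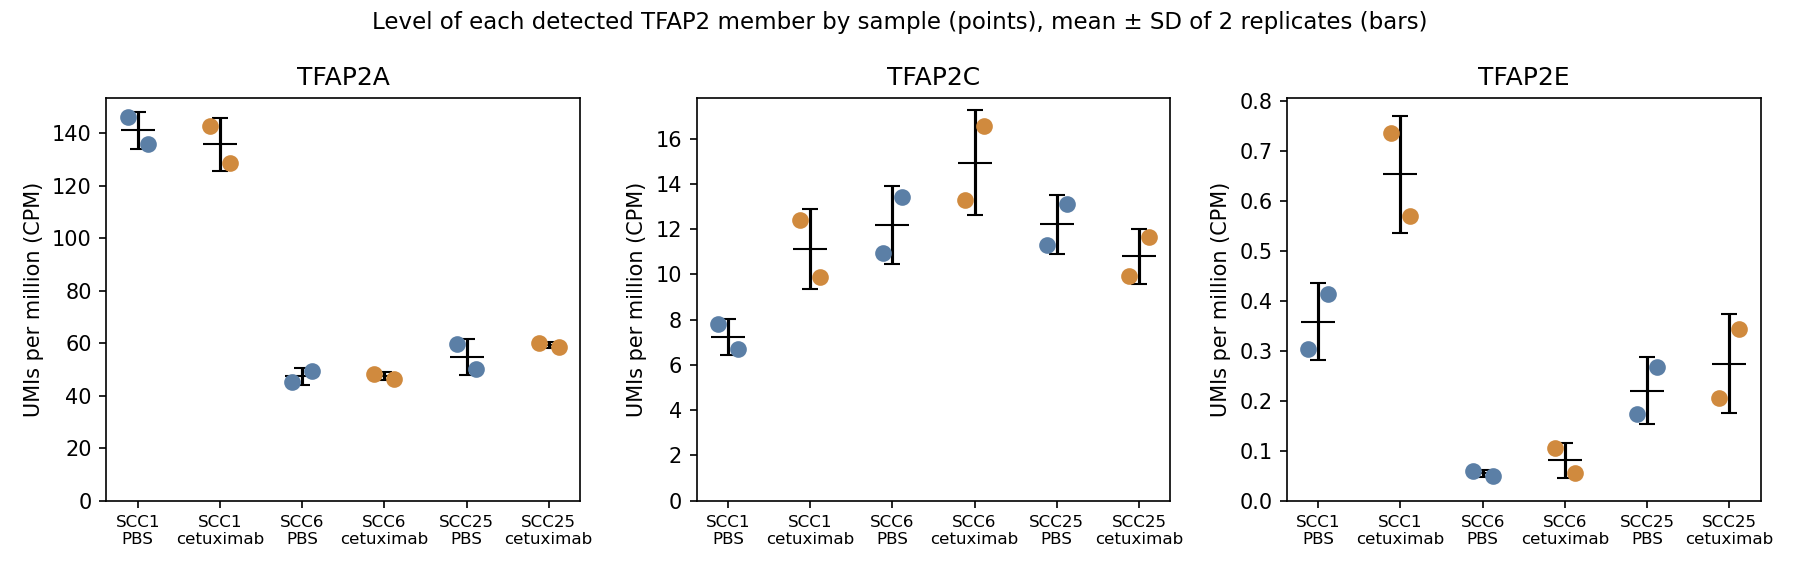
CPM (vertical axis, from 0) of TFAP2A, TFAP2C and TFAP2E in the 12 samples by group (horizontal axis), with points for samples and bars for the mean ± SD of 2 replicates. TFAP2A was at 129 to 146 CPM in SCC1 and at 45.1 to 60.1 CPM in the other lines, while TFAP2C was lowest in SCC1 PBS.

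These levels gave the lines a different family composition. TFAP2A made up 94.9% ± 0.212 (SD, n = 2) of all TFAP2 UMIs in SCC1 PBS and 79.5% ± 1.23 in SCC6 PBS. The TFAP2C share was 4.67% to 7.95% in the 4 SCC1 samples, 19.5% to 26.4% in SCC6 and 14.2% to 20.7% in SCC25. The ratio of TFAP2A to TFAP2C UMIs was 18.7 and 20.4 in SCC1 PBS and 11.5 and 13.0 in SCC1 cetuximab, against 2.79 to 6.04 in the 8 samples of SCC6 and SCC25. The SCC1 values did not overlap with those of the other lines. UMIs counted at the 3′ end do not scale with transcript length, but how well each gene is captured is not known, so the ratio was compared between samples and not read as a ratio of transcripts.

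To compare the untreated lines, UMIs were summed per sample and compared by quasi-likelihood F-tests in edgeR, with p-values adjusted over 17897 genes by the Benjamini-Hochberg method (adjusted p). TFAP2A was higher in SCC1 than in SCC6 by 1.24 ± 0.16 on the log2 scale (log2 fold change ± SE), a 2.36-fold difference with a 95% interval of 1.84 to 3.04 and an edgeR adjusted p of 0.000234. It was 2.26-fold higher in SCC1 than in SCC25 (interval 1.75 to 2.91, adjusted p = 0.000367). SCC25 and SCC6 were not separated, with a log2 difference of 0.07 ± 0.16 and an adjusted p of 0.773. The order of TFAP2A was thus SCC1 above SCC25 and SCC6, whose difference was within the spread between replicates.

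TFAP2C was lower in SCC1 PBS than in SCC6 PBS, with a log2 difference of -1.09 ± 0.22 or 2.12-fold (interval 1.51 to 2.99, adjusted p = 0.00327). Against SCC25 PBS the log2 difference was -0.96 ± 0.22 (adjusted p = 0.00655), and it missed the threshold of 0.05 when SCC1 PBS replicate 2 was left out (-0.91, adjusted p = 0.0572). SCC25 and SCC6 did not differ beyond their spread (-0.13 ± 0.22, adjusted p = 0.673).

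TFAP2E was 5.22-fold higher in SCC1 PBS than in SCC6 PBS (log2 2.38 ± 0.54, adjusted p = 0.00543). It was 3.68-fold higher in SCC25 PBS than in SCC6 PBS (log2 1.88 ± 0.54, adjusted p = 0.0187), a call that was lost without SCC6 PBS replicate 1 (adjusted p = 0.0614), SCC6 PBS replicate 2 (0.0951) or SCC25 PBS replicate 2 (0.127). SCC1 and SCC25 were 0.50 ± 0.46 apart on the log2 scale (adjusted p = 0.416).

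Of the 3 members that could be tested, 3 differed between SCC1 and SCC6, 2 between SCC1 and SCC25 and 1 between SCC25 and SCC6. Differences between the lines were common: 40.2% of all tested genes passed between SCC1 and SCC6, 40.8% between SCC1 and SCC25 and 40.9% between SCC25 and SCC6. With 3 genes tested, these counts were not read as particular to the family.

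TFAP2A-AS1, a long noncoding gene on the opposite strand within the TFAP2A locus (chr6:10412318-10416169), had 1258 UMIs. It was at 1.89 to 2.69 CPM in SCC1, at 0.598 to 1.54 in SCC6 and at 0.454 to 0.651 in SCC25. SCC1 PBS was higher than SCC6 PBS (log2 1.00 ± 0.36, adjusted p = 0.0480) and SCC25 PBS (log2 1.65 ± 0.37, adjusted p = 0.00557). Whether the counting used strand is not stated in the sources used here, so these reads are uncertain and cannot be told apart with certainty from TFAP2A.

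The main question of the study was what 5 days of cetuximab do to these cells. No TFAP2 member passed the test in any line, across the lines or for a difference between lines. This main fit did not pair samples by replicate number. TFAP2A changed by -0.10 ± 0.16 on the log2 scale in SCC1 (95% interval -0.46 to 0.25), by -0.23 ± 0.16 in SCC6 (-0.59 to 0.13) and by 0.09 ± 0.16 in SCC25 (-0.27 to 0.45). Across the lines the log2 difference was -0.08 ± 0.09 (interval -0.28 to 0.12, adjusted p = 0.673). In SCC6 the CPM means of TFAP2A were equal at 47.3 ± 3.13 (SD, n = 2) and 47.3 ± 1.504, and the negative fitted value came with the TMM scaling factors, which were 0.835 and 0.894 in the PBS samples and 1.02 and 1.00 in the cetuximab samples.

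TFAP2C had its highest fitted value in SCC1, where the CPM mean was 7.24 ± 0.795 in PBS and 11.1 ± 1.78 under cetuximab. The 2 cetuximab samples lay above the 2 PBS samples. The log2 difference was 0.57 ± 0.22 (interval 0.08 to 1.06) with an unadjusted p of 0.0265 and an edgeR adjusted p of 0.490. With replicate number as a replicate block, the value was 0.57 ± 0.13 and the adjusted p 0.0527. In SCC6, where the CPM means were 12.2 ± 1.74 and 14.9 ± 2.33, the log2 difference after TMM scaling was 0.07 ± 0.22 (adjusted p = 0.904) and in SCC25 -0.21 ± 0.22 (adjusted p = 1). The interaction of line and treatment, which tests whether the lines differed, gave an unadjusted p of 0.0808 and an adjusted p of 0.738.

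For TFAP2E the fitted log2 values were 0.79 ± 0.45 (SCC1), 0.31 ± 0.61 (SCC6) and 0.27 ± 0.46 (SCC25). Across the lines its value was 0.49 ± 0.28 (adjusted p = 0.343). The values of all 3 lines were positive, and each interval included 0.

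**Figure D2:**
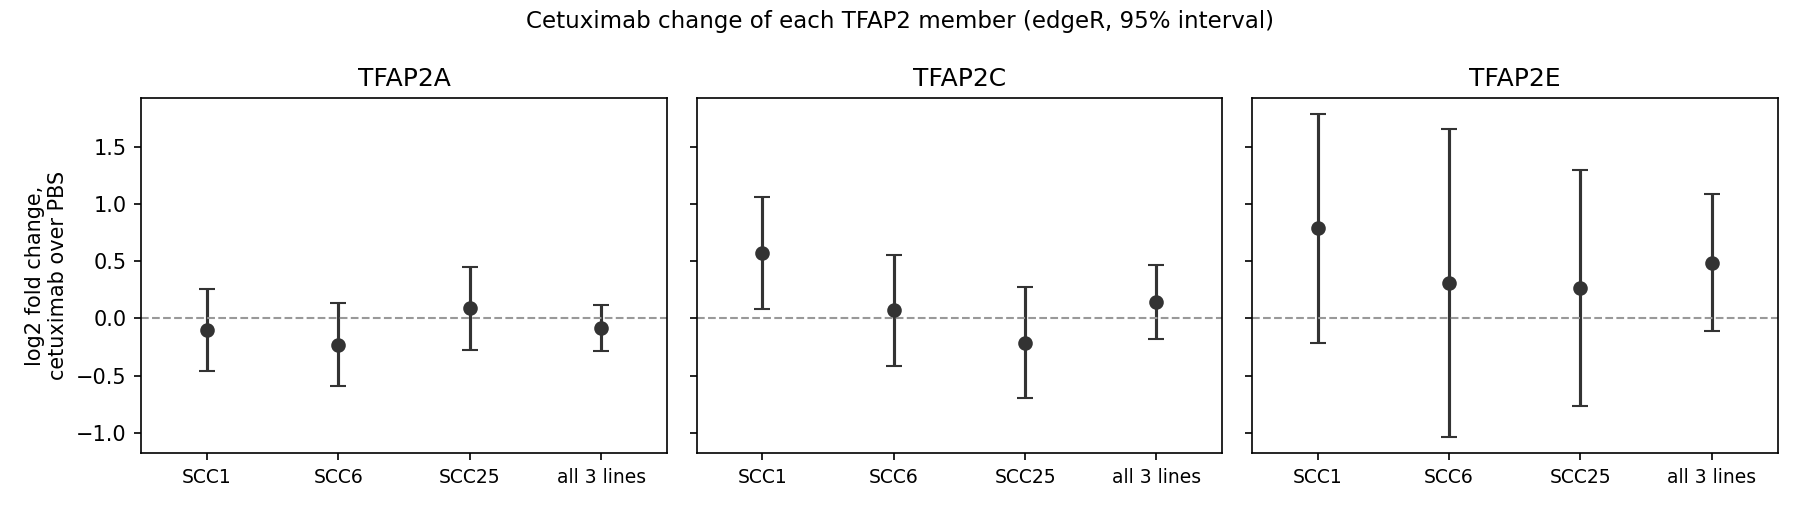
Log2 fold change of cetuximab over PBS (vertical axis) for TFAP2A, TFAP2C and TFAP2E in each line and across all 3 lines (horizontal axis), with points for the edgeR estimate and bars for its 95% interval. Every interval includes 0 except that of TFAP2C in SCC1 (0.08 to 1.06), whose adjusted p was 0.490.

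The background for these counts differed by line. In SCC6, 3.81% of tested genes passed and in the fit across lines 3.67%, while in SCC1 it was 0.0168%. In SCC25 the share was 0% with edgeR, although 1041 genes had an unadjusted p under 0.05 and DESeq2 called 101. For the interaction it was also 0%, with 1318 genes under an unadjusted p of 0.05 and 276 calls by DESeq2. DESeq2 called 0 of the 3 members in any of these comparisons, and TFAP2C in SCC1 was the 1 case with an unadjusted p under 0.05.

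The share of cells with at least 1 UMI followed the levels. At 15000 UMIs per cell, TFAP2A was seen in 85.4% and 85.4% of SCC1 PBS cells and in 85.9% and 83.2% of those given cetuximab. SCC6 had shares of 46.3% and 50.04% in PBS and 47.7% and 47.8% under cetuximab. In SCC25 they were 58.8% and 52.6% in PBS and 56.9% and 56.5% under cetuximab. TFAP2A was therefore detected in most SCC1 cells at this depth and in about as many SCC6 cells as not. Without thinning, the mean share of SCC1 was 98.5% in PBS and 98.4% with cetuximab. The corresponding means were 76.4% and 74.3% for SCC6, then 81.7% and 88.0% for SCC25.

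Shares were set beside those of genes that these cells should lack. PTPRC, CD3E, ALB and HBB had 2 to 19 UMIs each in all cells, and the highest share in a sample was 0.137% after thinning and 0.345% without it. Since no cell of these cultures should express such genes, they do not measure how many TFAP2A or TFAP2C UMIs came from free RNA, and each library held 1 line, so that no cell type without these members was there to measure it.

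TFAP2C was positive in 12.5% and 9.27% of SCC1 PBS cells and in 17.0% and 14.3% of those given cetuximab. SCC6 had shares of 14.9% and 18.2% in PBS and 18.5% and 22.2% under cetuximab. In SCC25 they were 15.2% and 18.4% in PBS and 13.9% and 17.0% under cetuximab. Both cetuximab samples of SCC1 and of SCC6 were above the PBS samples of their line, and those of SCC25 overlapped with PBS.

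TFAP2E was positive in 94 cells after thinning. Its shares were 0.247% and 0.915% in SCC1 PBS and 1.39% and 1.11% in SCC1 cetuximab. In SCC25 they ranged from 0.183% to 0.602%, and in SCC6 from 0.0754% to 0.231%. The SCC6 PBS values, 0.0754% and 0.123%, were at or under the highest share of the genes that these cells should lack.

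**Figure D3:**
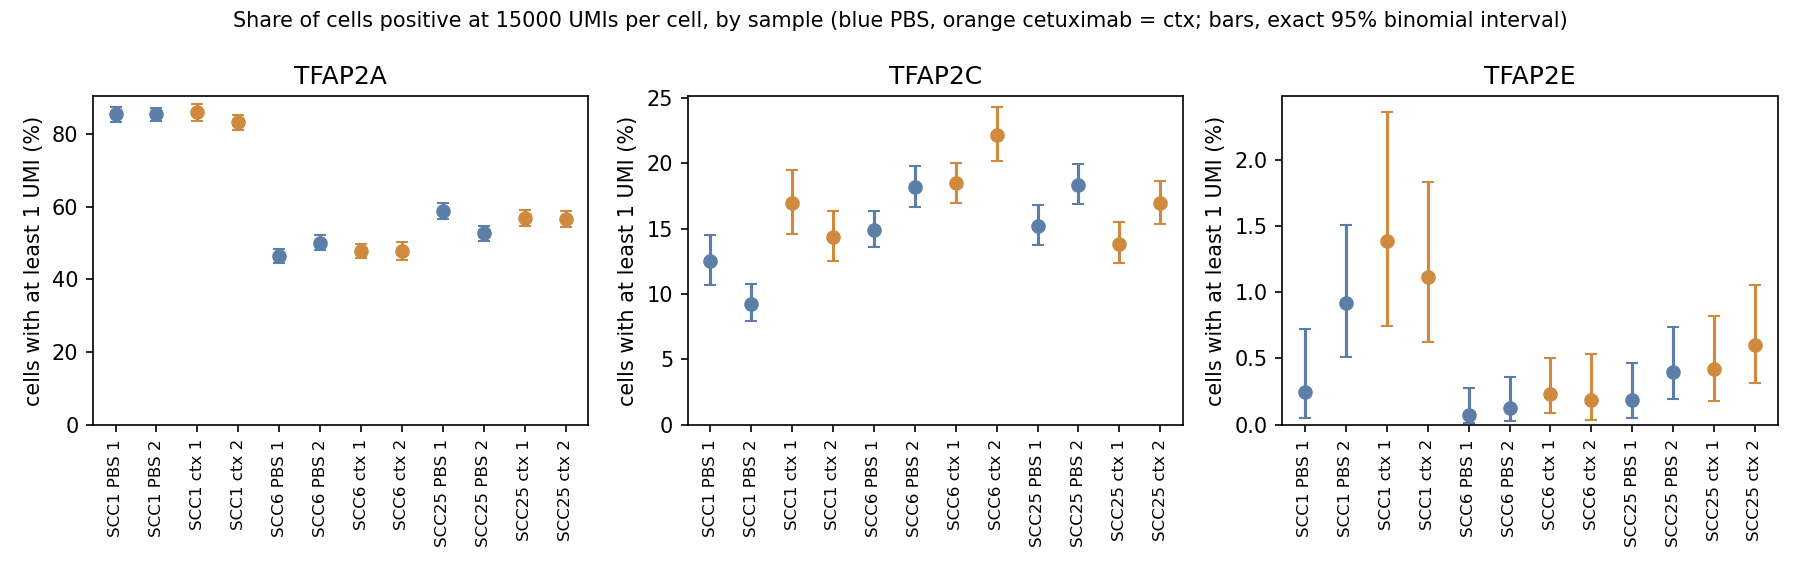
Percent of cells with at least 1 UMI of TFAP2A, TFAP2C or TFAP2E (vertical axis, from 0, a different scale in each panel) in the 12 samples (horizontal axis) at 15000 UMIs per cell, with points in blue for PBS and orange for cetuximab and bars for the exact 95% binomial interval. TFAP2A was seen in 83.2% to 85.9% of SCC1 cells and in 46.3% to 58.8% of cells of the other lines.

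The shares were compared between cetuximab and PBS with a two-sided exact permutation test within lines, whose smallest possible p is 0.00926, and p-values were adjusted over the 3 members. For TFAP2A the mean difference was -0.102 percentage points (exact permutation p = 0.889). For TFAP2C it was 2.38 percentage points (exact permutation p = 0.148, adjusted p = 0.222), with line values of 4.75 (SCC1), 3.79 (SCC6) and -1.39 (SCC25). For TFAP2E it was 0.332 percentage points with the smallest p possible and an adjusted p of 0.0278. The TFAP2E value rested on 1 random draw of UMIs: taken as the mean expected over all draws, an alternative added after seeing the data, it was 0.221 percentage points (exact permutation p = 0.0370, adjusted p = 0.111). On the CPM scale, also added afterwards, the difference was 0.125 CPM (exact permutation p = 0.0741, adjusted p = 0.222), and no change of TFAP2E is read from a share this low.

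TFAP2A also differed between lines in the number of UMIs per cell. At least 3 UMIs were present in 28.6% to 38.8% of SCC1 cells, in 4.30% to 5.13% of SCC6 cells and in 5.15% to 8.23% of SCC25 cells. The highest count in a cell was 12, in SCC1. The Fano factor (variance over mean of UMIs per cell, which is 1 for random counting) was 1.07 to 1.35 for TFAP2A and 0.96 to 1.16 for TFAP2C over the 12 samples. In SCC1 PBS, 88.3% of cells would have been positive for TFAP2A if its UMIs were spread at random, and 85.4% were. For TFAP2A the factor was thus above that of random counting in all 12 samples. These values come from thinned cells, and random thinning itself brings the factor nearer to 1. They therefore do not show how close the spread between cells was to counting before thinning. Cells without a UMI were not read as a class of cells.

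TFAP2A and TFAP2C were found together in cells about as often as their separate shares give. After thinning, 13651 cells were positive for TFAP2A and 3735 for TFAP2C, and 2195 for both, where independence within each sample gives 2144. The log2 of observed over expected joint cells averaged 0.024 over the samples and was above 0 in 6 of 12 (exact sign-flip permutation p = 0.319, adjusted over 9 tests 0.516). The ratio ran from 0.96 to 1.15, with the highest value in SCC25 PBS replicate 2, where 278 cells had both and 242 were expected. Across the cells of a sample, Pearson's r of the 2 UMI counts was -0.03 to 0.07, in sparse counts from the same libraries. Without thinning the average was 0.0278 with an adjusted p of 0.00147 by the same exact test. Cells that were not thinned differ in depth, and the part of depth in this value was not tested. No co-occurrence was therefore read from it.

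The cells of each sample fell into 4 classes by these genes. Cells with TFAP2A and no TFAP2C UMI made up 37.3% to 77.3%, and cells with neither 11.3% to 46.2%. Cells with both made up 7.43% to 14.2%, and cells with TFAP2C and no TFAP2A UMI 1.16% to 11.7%. The first class was largest in SCC1 and the TFAP2C-only class smallest there. TFAP2E was too rare for a test: 58 cells held it with TFAP2A against 64.7 expected, and 15 held it with TFAP2C against 14.3 expected.

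**Figure D4:**
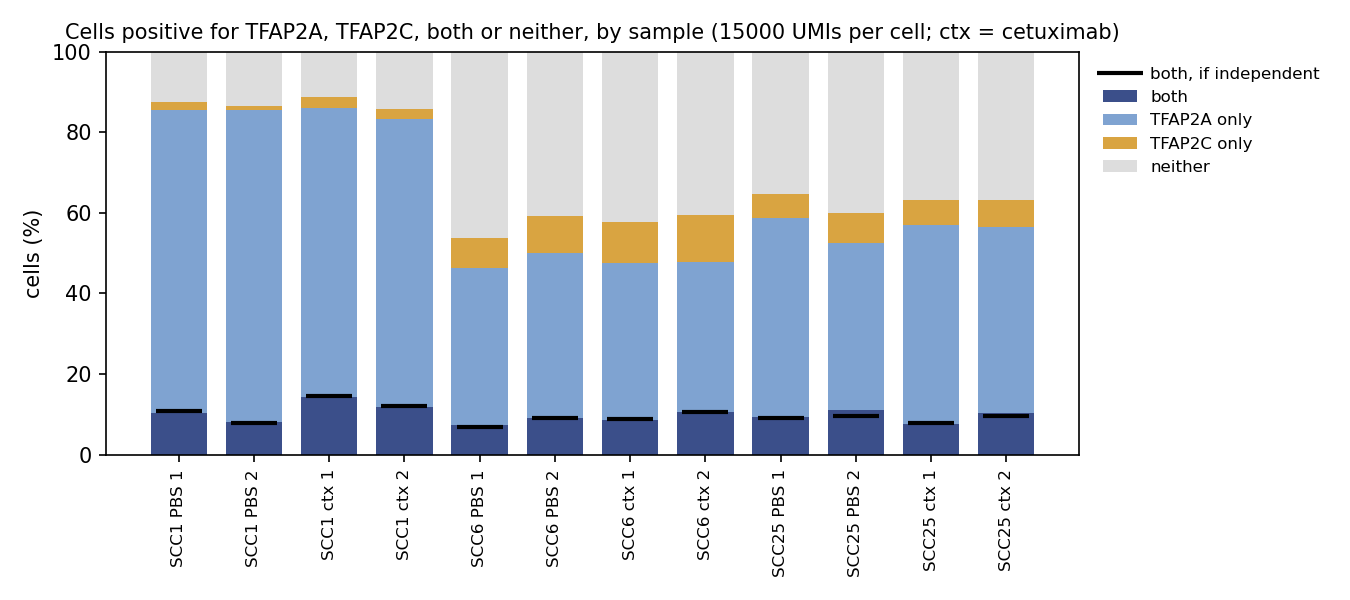
Percent of cells (vertical axis, 0 to 100) positive for TFAP2A and TFAP2C, for either alone or for neither in the 12 samples (horizontal axis) at 15000 UMIs per cell, as stacked bars, with a black mark at the share of double-positive cells that independence would give. The marks lie at the top of the double-positive bars, with ratios of observed to expected of 0.96 to 1.15.

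To ask whether the members varied with the state of the cells, their mean UMIs were compared between cells with and without a UMI of MKI67 (a proliferation marker), VIM (vimentin, a mesenchymal marker), IVL (involucrin, a marker of squamous differentiation) or EGFR. For TFAP2A the average log2 ratios were 0.016 for MKI67, -0.062 for VIM, -0.043 for IVL and 0.039 for EGFR, over 12, 8, 6 and 12 samples. For TFAP2C they were -0.095 for MKI67, -0.158 for VIM, 0.098 for IVL and 0.027 for EGFR. None of these 8 passed the two-sided exact sign-flip permutation test (adjusted p = 0.516 to 0.781). VIM could not be split in SCC1, and IVL could be split in SCC6 and in 2 samples of SCC25.

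The splits of EGFR, VIM and MKI67 were uneven between lines. TFAP2A was higher in EGFR-positive cells in 4 of 4 SCC6 samples and in 2 of 4 samples of each other line. The SCC6 log2 ratio was 0.271 in PBS replicate 1 and 0.034 to 0.054 in the rest. TFAP2C was lower in EGFR-positive cells in the same 4 SCC6 samples, with log2 ratios of -0.089 to -0.022. With cells thinned to 10000 UMIs, which keeps more cells, the average for TFAP2A and EGFR was 0.0893 with an adjusted p of 0.0176 by the exact permutation test. TFAP2C was lower in VIM-positive cells in 4 of 4 SCC25 samples, with log2 ratios of -0.887 to -0.126, and in 2 of 4 SCC6 samples. It was also lower in MKI67-positive cells in 4 of 4 SCC25 samples, with log2 ratios of -0.533 to -0.024. The cells with VIM were 458 of 2652 and 862 of 2436 in the SCC6 PBS samples and 2395 of 2592 and 1503 of 1639 in the SCC6 cetuximab samples. The 4 of 4 cases were picked by this agreement from all lines and splits, and differences between lines in these splits were not tested.

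The genes around the family were described from lists, and 56 listed genes were tested. The list of 6 growth factor and receptor genes was named by the study as TFAP2A targets and is not independent of it, while the others are textbook AP-2 targets (21 genes), AP-2 partners and regulators (14) and epithelial transcription factors (15). Under cetuximab, 9 of the 56 were called in SCC6 (5 higher and 4 lower), or 16.1%, against 3.81% of all genes. Across the lines 3 were called (all higher), or 5.36%, which was near the 3.67% of all genes. In SCC1, SCC25 and the interaction 0 each were called, against 0.0168%, 0% and 0% of all genes. At an unadjusted p under 0.05 there were 9 in SCC1, 7 in SCC25 and 11 for the interaction, and DESeq2 called 1, 0 and 2, against 1.53%, 0.564% and 1.54% of all genes. In SCC6 DESeq2 called 16 of the 56 and across the lines 10, against 9.34% and 9.9% of all genes. With the replicate block, edgeR called 8 in SCC1, 21 in SCC6, 1 in SCC25, 12 across the lines and 7 for the interaction. The block also raised the share called of all genes, to 4.45% in SCC1, 20.1% in SCC6, 0.978% in SCC25, 11.6% across the lines and 1.29% for the interaction, and the counts with the block for single lists are to be set against these shares. The median log2 change of the 56 genes was 0.12 for SCC1, -0.04 for SCC6 and -0.03 for SCC25.

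Among the growth factor and receptor genes, TGFBR3, the type III receptor of TGF-beta, fell in SCC6. It was at 1.80 and 1.39 CPM in PBS and at 0.45 and 0.34 under cetuximab, with no overlap, and fell by 2.25 on the log2 scale (SE 0.48, adjusted p = 0.0319). ERBB2, a receptor of the EGFR family, was at 25.1 and 23.9 CPM in SCC1 PBS and at 35.4 and 34.3 in SCC1 cetuximab. In SCC6 it was at 15.6 and 17.1 CPM in PBS and 24.9 and 26.5 under cetuximab. The cetuximab samples of both lines were above PBS, and the fitted log2 difference across lines was 0.40 ± 0.11 with an adjusted p of 0.0599, or 0.015 with the replicate block. EGFR itself was fitted at 0.08 ± 0.13 across lines (adjusted p = 0.787). None of the 6 was called in SCC1, in SCC25 or across lines without the block. TGFBR3 was the 1 call in SCC6, where 3.81% of all genes passed. With the block 2 of 6 were called higher across lines and 4 of 6 in SCC6 (2 higher and 2 lower). The shares of all genes with the block were 11.6% across lines and 20.1% in SCC6.

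The other AP-2 target genes held 4 calls in SCC6, all higher, and 3 across lines, all higher, of 21 tested. These were 19.0% and 14.3% of the list, against 3.81% and 3.67% of all genes. Their median log2 change was 0.58 for SCC1, 0.82 for SCC6 and 0.34 for SCC25, where that of all genes was close to 0. With the replicate block 5 of 21 were called higher in SCC1, 9 in SCC6 and 4 across lines, where 4.45%, 20.1% and 11.6% of all genes were called. APOE, a lipid carrier, was at 1.39 and 1.56 CPM in SCC6 PBS and at 5.70 and 5.60 in SCC6 cetuximab, and rose by 1.71 ± 0.27 on the log2 scale (adjusted p = 0.0106). It also rose across lines (log2 0.96 ± 0.20, adjusted p = 0.0257), with 187 and 224 CPM in SCC1 PBS against 336 and 303 under cetuximab.

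IGFBP5, which binds insulin-like growth factors, was at 2.38 and 20.1 CPM in SCC6 PBS and at 253 and 195 in SCC6 cetuximab (log2 4.12 ± 0.81, adjusted p = 0.0240). The PBS replicates differed from each other, but both lay far below the cetuximab samples. MCAM, a cell adhesion molecule, was at 0.23 and 0.38 CPM in PBS and at 1.26 and 2.30 under cetuximab (log2 2.33 ± 0.42, adjusted p = 0.0180). TGM1, a transglutaminase that cross-links the cornified envelope, was at 0.66 and 0.67 CPM in PBS and at 2.36 and 4.34 under cetuximab (log2 2.11 ± 0.50, adjusted p = 0.0457). Both genes were low in all 4 SCC6 samples, and neither overlapped between PBS and cetuximab.

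CDKN1A, which encodes the cell cycle inhibitor p21, rose across lines (log2 0.69 ± 0.14, adjusted p = 0.0243). It was at 37.7 and 33.0 CPM in SCC1 PBS and 77.9 and 60.1 under cetuximab, and at 40.4 and 58.8 in SCC6 PBS and 93.6 and 111 under cetuximab. In SCC25 it was at 54.7 and 65.7 CPM in PBS and 85.4 and 70.7 under cetuximab. MMP2, a matrix-degrading protease, also rose across lines (log2 1.23 ± 0.26, adjusted p = 0.0283), with 7.07 and 19.6 CPM in SCC6 PBS and 45.6 and 52.4 under cetuximab. In SCC1 it had at most 18 UMIs in a sample. The PBS and cetuximab samples of each of the 3 lines did not overlap for CDKN1A.

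**Figure D5:**
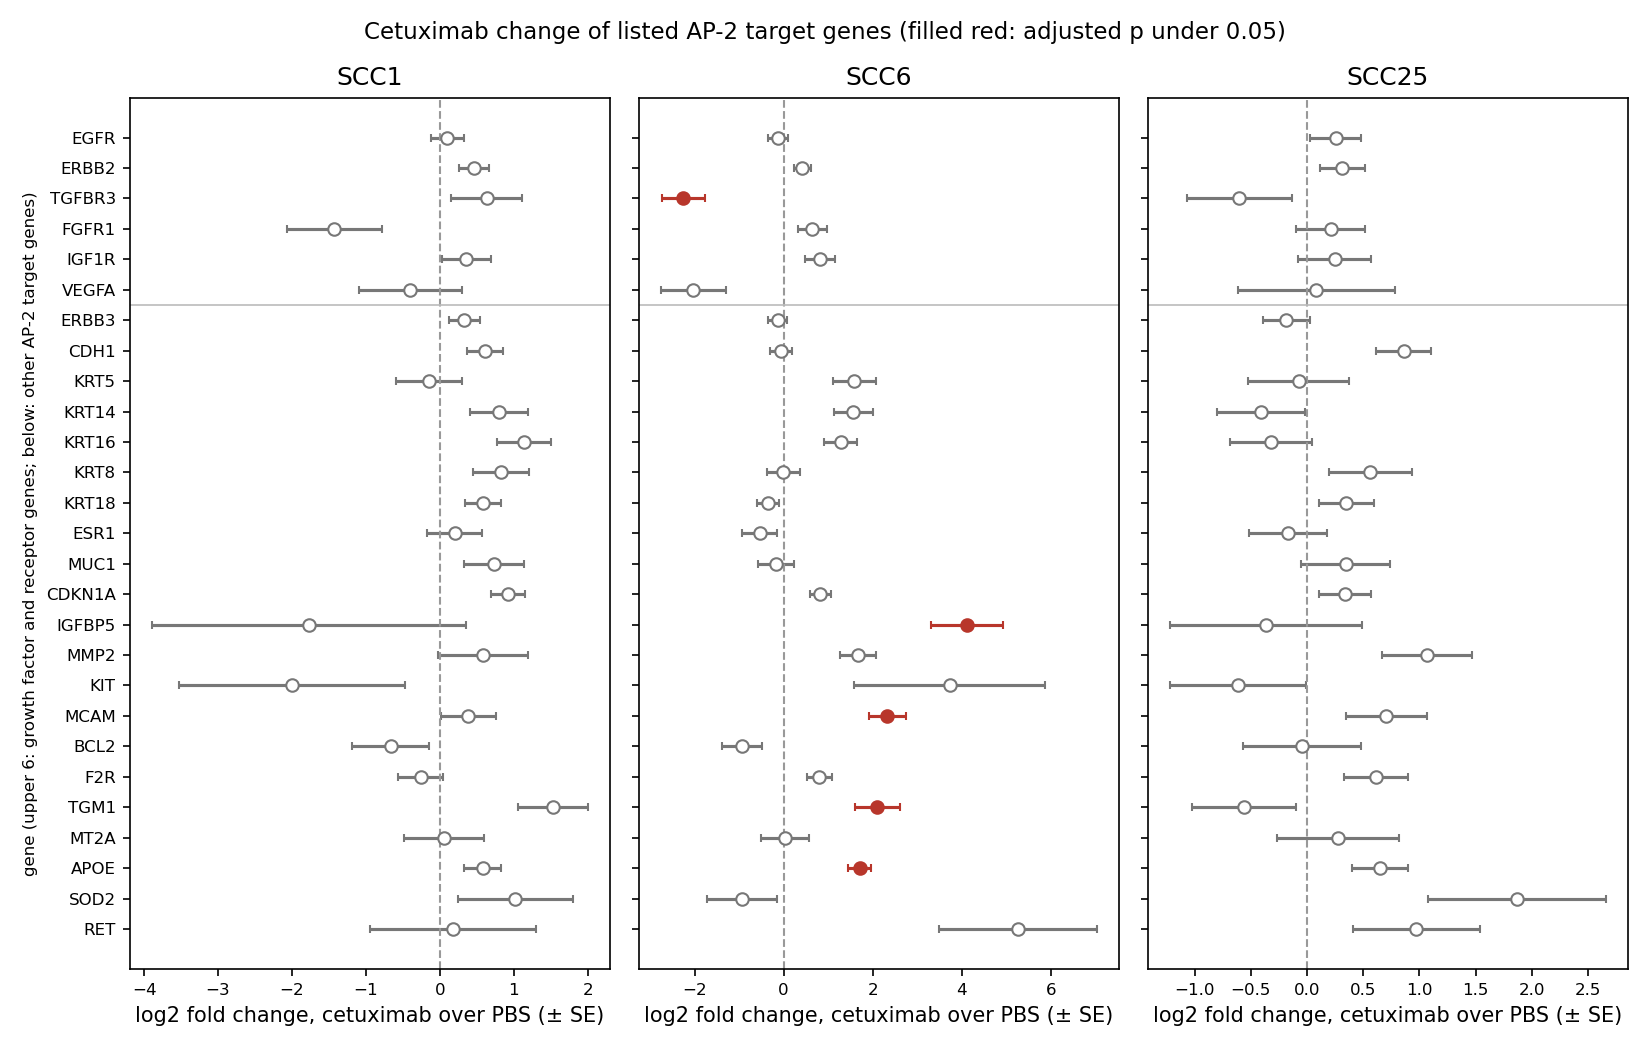
Log2 fold change of cetuximab over PBS (horizontal axis, a different scale in each panel) for the 6 growth factor and receptor genes and 21 other AP-2 target genes (vertical axis) in SCC1, SCC6 and SCC25, with points for the edgeR estimate and bars for ± SE. Filled red points mark adjusted p under 0.05, which are TGFBR3 (lower) and IGFBP5, MCAM, TGM1 and APOE (higher), all in SCC6.

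No AP-2 partner or regulator of the 14 tested was called in any line or across lines. Of all genes, 3.81% were called in SCC6 and 3.67% across lines. Their median log2 change was -0.24 for SCC1, -0.28 for SCC6 and -0.07 for SCC25. With the replicate block 2 of 14 were lower in SCC1, 1 in SCC6 and 2 across lines, where 4.45%, 20.1% and 11.6% of all genes were called, so the SCC6 count was below and the count across lines near the share of all genes. The most abundant were NPM1, a nucleolar chaperone, with a mean of 1245 CPM over all samples, and DEK, a chromatin protein, with 552 CPM.

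Of 15 epithelial transcription factors, 4 were called in SCC6 (26.7%, against 3.81% of all genes) and 0 in the other lines and across lines. With the replicate block the counts were 7 in SCC6, 1 in SCC1, 1 in SCC25 and 4 across lines (2 higher and 2 lower). The shares of all genes with the block were 20.1%, 4.45%, 0.978% and 11.6%, in the same order. SOX2, a stem cell factor, was at 1.78 and 2.93 CPM in SCC6 PBS and at 0.45 and 0.19 under cetuximab (log2 -3.12 ± 0.64, adjusted p = 0.0288). ELF3, an epithelial ETS factor, was at 215 and 142 CPM in PBS and 42.6 and 45.7 under cetuximab (log2 -2.26 ± 0.53, adjusted p = 0.0463). KLF5, a factor of proliferating epithelium, was at 78.5 and 51.7 CPM in PBS and 30.3 and 28.9 under cetuximab (log2 -1.38 ± 0.33, adjusted p = 0.0474). In these 3 genes the PBS and cetuximab samples did not overlap. The calls in SCC6 were all lost when SCC6 PBS replicate 1 was left out, and most were lost without either SCC6 cetuximab replicate. Some were lost without SCC6 PBS replicate 2, while the directions stayed. Each of these fits leaves 1 sample in a group. In SCC6 the share called of all genes was also lower without SCC6 PBS replicate 1 or either SCC6 cetuximab replicate. The loss was therefore not read as particular to the listed genes. TGM1, KLF5 and ELF3 were also lost without any 1 of the 4 SCC1 samples. The 3 calls across lines were lost in 6 (CDKN1A), 7 (MMP2) and 8 (APOE) of the 12 fits that left out 1 sample. The squamous marker sum was also higher in the SCC6 cetuximab samples, mainly through KRT17, while KRT6A and EPCAM had lower means. The part of these markers in the SCC6 values was not tested.

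Between the untreated lines, 27 of the 56 listed genes differed between SCC1 and SCC6, 28 between SCC1 and SCC25 and 28 between SCC25 and SCC6, or 48.2%, 50% and 50%, against the 40.2%, 40.8% and 40.9% of all genes given above. FGFR1, a fibroblast growth factor receptor, was lower in SCC1 than in SCC6 (log2 -4.22 ± 0.42, adjusted p = 3.46e-05) and SCC25 (-5.93 ± 0.43, adjusted p = 6.74e-06). ERBB2 was higher in SCC1 than in SCC25 by 1.52 ± 0.20 on the log2 scale (adjusted p = 0.000300). SCC1, the line with most TFAP2A, thus held both higher and lower AP-2 target genes: of 21 other targets, 5 were higher and 8 lower than in SCC6, and 2 were higher and 12 lower than in SCC25.

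KRT14 and KRT5, the basal keratins, were among those higher in SCC1 than in SCC6, at 10.86 ± 0.60 and 8.35 ± 0.62 on the log2 scale. APOE was higher in SCC1 than in both other lines (log2 6.79 ± 0.32 against SCC6 and 2.63 ± 0.27 against SCC25). Of the partners, KCTD1, which represses AP-2alpha, was higher in SCC1 (0.94 ± 0.20, adjusted p = 0.00428) and SCC25 (1.47 ± 0.20, adjusted p = 0.000354) than in SCC6. WWOX, which binds AP-2gamma, was lower in SCC1 than in SCC6 (-1.15 ± 0.21, adjusted p = 0.00190).

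Epithelial transcription factors also separated the lines. ZNF750, a factor of terminal epidermal differentiation, was higher in SCC1 than in SCC6 (log2 6.56 ± 0.98, adjusted p = 0.000488) and SCC25 (2.71 ± 0.77, adjusted p = 0.0173). GATA3 was lower in SCC1 than in SCC6 (-4.68 ± 0.67, adjusted p = 0.000398). SOX2 was lower in SCC1 than in SCC6 (-2.95 ± 0.63, adjusted p = 0.00428) and than in SCC25 (-6.23 ± 0.70, adjusted p = 9.59e-05).

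The genes with the pattern most like that of each member were ranked by Pearson's r of log2(CPM + 1) over the 12 samples, among 5330 genes with a mean of at least 20 CPM. For TFAP2A they were TMEM33 (r = 0.993), NCBP2 (0.992), TIMM17B (0.989), MED28 (0.989) and CDKN2A (0.989). CDKN2A, which encodes the cell cycle inhibitor p16, was at 123 CPM in SCC1 PBS, at 0.412 in SCC25 PBS and at 0 in SCC6. For TFAP2C they were PHKB (r = 0.888), ABHD4 (0.871), LBH (0.860), DNAJC15 (0.847) and AP2A2 (0.834). LBH had a mean of 1.42 CPM in SCC1 PBS and 146 CPM in SCC6 cetuximab. The 12 points come from 3 lines, so that for TFAP2A the ranking follows the contrast of SCC1 with the other lines.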

How the data were processed

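UMI counts per gene and cell were the deposited values, whole numbers in 1 table per line, made by the authors with Cell Ranger on GRCh38 per the labels; versions are not given in the sources used here. All 23914 cells were used without doublet removal. Counts of the 24 repeated symbols were added. Counts were summed per sample and tested with edgeR 4.0.16 (R 4.3.3; TMM, filterByExpr, 6 residual degrees of freedom, 17897 genes, FDR threshold 0.05), and with DESeq2 1.42.0 as an alternative. CPM were computed from the counts. The step was tested on simulated data. Cells were thinned to 15000 UMIs at random, and samples were compared with exact permutation and sign-flip tests (scipy 1.17.1). Replicate numbers of PBS and cetuximab samples came from the labels. The replicate differences of PBS and of cetuximab correlated at 0.634 in SCC1, 0.558 in SCC6 and 0.689 in SCC25 over 17897 genes. The main edgeR fit and the permutation test of shares did not use this pairing. Among the tests, only those given with the replicate block did.

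The members and lists were chosen with earlier results of these data known. Genes named were the members, listed genes past the threshold (at most 6 per list and comparison, by smallest FDR), the 2 most abundant of a list with none, and the 5 genes most like TFAP2A and TFAP2C. From the largest sets a selection of these is given. Promoters and coordinates are from RefSeq GRCh38.p14. GPX1 and TFAP2A-AS2 were not analysed here, and some listed genes are not reported here.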

Additional observations from a re-analysis of the deposited data

Results flagged for a closer look

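The share of cells positive for TFAP2C moved in opposite directions in different lines, in every pair of samples with the same replicate number, at 15000 UMIs per cell. In SCC1 the cetuximab sample was higher than the PBS sample by 4.441 and 5.06 percentage points, and in SCC6 by 3.548 and 4.023. In SCC25 the differences were -1.365 and -1.419 percentage points. These shares carry no TMM scaling: in the edgeR fit the TFAP2C log2 difference in SCC6 was 0.07 ± 0.22, and it ran from -0.12 to 0.23 with 1 sample left out. The difference between lines was not tested on these shares, and the edgeR test of the interaction on summed counts gave TFAP2C an adjusted p of 0.738. This was 1 of 12 results examined for opposite directions. Groups of 2 samples are too small for a test of outlying samples.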

How the results depend on the processing

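No TFAP2 member passed the threshold for cetuximab under any alternative in edgeR or DESeq2. The lowest adjusted p was 0.0527 (edgeR), for TFAP2C in SCC1 with the replicate block, which changed no call of a member. Between untreated lines, all 3 members kept their calls between SCC1 and SCC6, and TFAP2A between SCC1 and SCC25, in all 19 alternatives. With 1 sample left out, the called differences that could fall short were TFAP2C between SCC1 and SCC25 (-1.11 to -0.78) and TFAP2E between SCC25 and SCC6 (1.45 to 2.19). Signs of uncalled values turned when 1 sample was left out: TFAP2A between SCC25 and SCC6 (-0.0044 to 0.132), TFAP2C between them (-0.31 to 0.03), and, for cetuximab, TFAP2C in SCC6 (-0.12 to 0.23), TFAP2E in SCC6 (-0.18 to 0.69) and in SCC25 (-0.17 to 0.70).

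Of the 56 listed genes, DESeq2 called 1 in SCC1, 16 in SCC6, 2 for the interaction and 10 across lines (1.53%, 9.34%, 1.54% and 9.9% of all genes). With no filter the counts were 1, 15, 5 and 7 (0.938%, 4.76%, 0.958% and 4.03% of all). With the replicate block they were 8, 21, 7 and 12, and 1 in SCC25 (4.45%, 20.1%, 1.29%, 11.6% and 0.978% of all). The SCC6 samples alone gave 5 calls (1.66% of all). Leaving out 1 sample gave 0 to 10 calls in SCC6 (0 without SCC6 PBS replicate 1), 0 to 1 for the interaction, 0 to 5 across lines and 18 to 29 between SCC1 and SCC25 (18 without SCC1 PBS replicate 2).

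The TFAP2E share difference was 0.786 percentage points without thinning, 0 for cells with 2 UMIs, 0.315 without the 5% of cells with most UMIs, 0.299 without cells over 20% mitochondrial UMIs, 0.221 as the mean over all draws and 0.220 to 0.443 with 1 sample left out. The exact test over 6 pairs as a replicate block gave its smallest p, 0.0313. The TFAP2A share difference turned to 0.284 at 10000 UMIs, 1.37 without thinning, 0.191 at 2 UMIs and 0.569 over all draws (-1.14 to 0.931 with 1 sample left out). Co-occurrence was 0.0278 without thinning and -0.140 at 2 UMIs. Without thinning, the splits of TFAP2A were 0.395 (MKI67), 0.236 (VIM), 0.148 (IVL) and 0.493 (EGFR), all positive. Those of TFAP2C were 0.299 (MKI67), 0.283 (IVL) and 0.277 (EGFR). The split of TFAP2C by VIM stayed negative in all 16 alternatives, from -0.256 to -0.00096. At 10000 UMIs TFAP2A gave 0.0893 for EGFR and 0.0644 for IVL. With 1 sample left out its MKI67 value was -0.0070 to 0.032 and its IVL value -0.073 to 0.028. The cause of these changes was not tested. TFAP2E, with 266 UMIs, was limited by depth.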
